A study of Danio rerio with 5 samples.

Results

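Myeloid cells were followed through 6 genes: mpx, lyz, lcp1, coro1a, spi1b and cebpa. They were found by the symbol that the array's annotation gives, and they are 6 of the 8793 genes named by it. Of the 15502 probe sets other than manufacturer's controls, 11 carried one of these symbols as their only symbol. Zebrafish embryos were taken at 72 h after fertilization, and their total RNA was labelled with biotin and read on Affymetrix arrays, 1 sample to an array. Fertilized wild-type eggs had received 1 to 2 nL of morpholino, a synthetic antisense oligomer that blocks the use of a target RNA, at 130 µmol/L. The control morphants had 2 arrays and the Bdh2 morphants 2, and 1 array held Bdh2 morphants injected together with a capped mRNA of mouse Bdh2 at 50 µg/ml, here called the ectopic Bdh2 array. All 3 groups had thus been injected, and knockdown by a morpholino is transient and leaves the gene intact. The labels number the replicates 1 and 2, and the ectopic Bdh2 array bears number 1. They do not say whether the numbers stand for separate clutches or days.

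Neutrophils and macrophages of the zebrafish larva arise from early waves of blood formation, before the adult blood organ takes over, and patrol tissue and blood. Their fate is set by a small group of transcription factors, of which Pu.1 drives the myeloid over the red cell programme and C/EBP alpha helps to shape granulocytes. Mature cells carry granules with enzymes that attack microbes, and move by remodelling actin. Bdh2 is a short-chain dehydrogenase whose proposed product in mammals is an iron-binding siderophore.

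The whole embryo was extracted, so that each value is an average over all tissues, and fewer myeloid cells cannot be told apart from less RNA per cell. Levels below are linear intensities, and tests used log2(intensity + 16). No presence calls were used. To be tested, a probe set needed a mean log2 value over the 40th percentile, an intensity of 97.6. Of the 15502 probe sets 9301 passed, and of the 11 myeloid probe sets 7 passed, with at least 1 for every gene. The targeted transcript, read by 1 bdh2 probe set, read 344 and 335 in control arrays 1 and 2, 235 and 643 in Bdh2 morphant arrays 1 and 2 and 142 with ectopic Bdh2 (morphants against controls 0.19 on the log2 scale, SE 0.51; limma adjusted p = 1.00). The morphants thus lay on either side of the controls. The labels do not say whether this probe set can record the morpholino's action or the injected mRNA, which was that of mouse Bdh2. Median intensity ran from 142 to 174 over the arrays.

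The granule genes came first. mpx codes for myeloperoxidase, the neutrophil enzyme that makes hypochlorous acid, and had 4 probe sets. The one that passed the filter read 609 and 120 in control arrays 1 and 2, 588 and 39.96 in Bdh2 morphant arrays 1 and 2, and 296 in the ectopic Bdh2 array. Both arrays numbered 1 were high, both numbered 2 were low, and the ectopic Bdh2 array lay between them. The log2 difference of array 2 from array 1 was -2.20 in controls and -3.43 in Bdh2 morphants, and its size depends on the added constant, since 39.96 lies under the filter's intensity. A second mpx probe set, below the filter, split in the same way, at 111 and 17.8 in controls, 115 and 33.3 in Bdh2 morphants and 58.8 with ectopic Bdh2. The other two did not. One, also below the filter, read 35.4 and 101 in controls, 59.9 and 20.4 in Bdh2 morphants and 70.6 with ectopic Bdh2. The dimmest read 5.63 and 18.1, then 2.97 and 30.4, and 7.81, the opposite order, at intensities far under the filter. The 4 probe sets of mpx therefore disagreed, and the statements on mpx below rest on the brightest.

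lyz, which codes for the lysozyme of granules that cuts bacterial cell walls, had 1 probe set and the values were well above the filter in all 5 arrays. It read 5599 and 2103 in control arrays 1 and 2, 4722 and 2209 in Bdh2 morphant arrays 1 and 2, and 3959 in the ectopic Bdh2 array. Here too the arrays numbered 1 lay above those numbered 2, by 2.66-fold in controls and 2.14-fold in Bdh2 morphants, and the ectopic Bdh2 array lay between.

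Both genes of the leukocyte cytoskeleton showed that order. lcp1 codes for L-plastin, which bundles actin filaments in white blood cells. Its intensity was 389 and 215 in controls, 438 and 89.2 in Bdh2 morphants and 308 with ectopic Bdh2. coro1a codes for coronin 1A, which binds actin in leukocytes, and had 2 probe sets past the filter. The brighter read 548 and 232 in controls, 570 and 156 in Bdh2 morphants and 422 with ectopic Bdh2. The dimmer read 159 and 78.1, then 160 and 98.7, and 108. In each of these 3 probe sets the lower of the number 1 arrays exceeded the higher of the number 2 arrays, whatever the group.

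The transcription factors differed from each other. spi1b codes for Pu.1, the factor at the head of the myeloid programme. Its probe set past the filter read 140 and 76.4 in controls, 177 and 76.9 in Bdh2 morphants and 130.3 with ectopic Bdh2. The dimmer one, below the filter, read 69.1 and 45.7, then 95.6 and 26.7, and 78.2. Both had the arrays numbered 1 above those numbered 2. cebpa codes for C/EBP alpha, which also acts in liver and other tissues. It read 565 and 425 in controls, 453 and 506 in Bdh2 morphants and 585 with ectopic Bdh2. It was the only one of the 6 genes with no probe set split by number, and its highest value was that of the ectopic Bdh2 array.

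**Figure D1:**
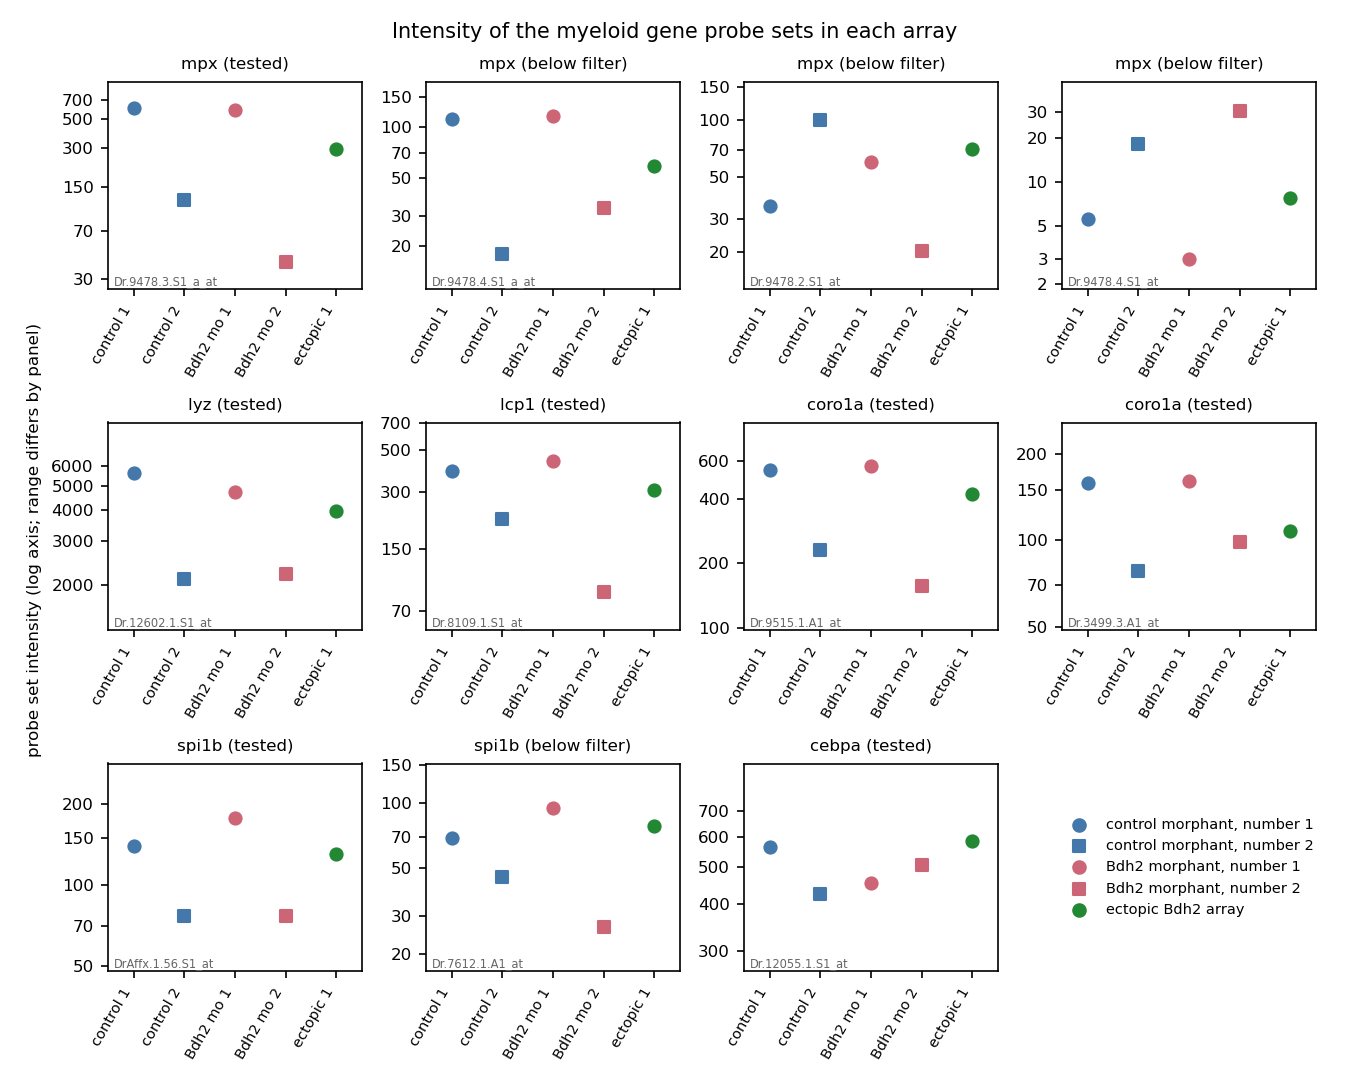
Intensity of each of the 11 myeloid probe sets in each array (log axis, with a range of its own in each panel). Colour gives the group and shape the replicate number. In 8 of the 11 probe sets both squares (number 2) lie below both blue and red circles (number 1), in 1 they lie above, and in 2, cebpa among them, they overlap.

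The comparison of Bdh2 morphants with control morphants asked whether myeloid transcripts differ when Bdh2 is targeted. None of the 7 tested myeloid probe sets differed past the threshold. One limma model with a mean per group held all 5 arrays, with Benjamini-Hochberg adjustment over 9301 probe sets and a threshold of 0.05. Among all probe sets 0% passed in this comparison, and 0 of the 7 myeloid ones did, each with an adjusted p = 1.00. Unadjusted p-values fell under 0.05 in 0 of 7, against 2.09% of all probe sets. Differences were below 0 in 5 (50.7% of all probe sets) and above 0 in 2 (49.3% of all), with a median of -0.09, against -0.01 over all probe sets. The arrays of the 2 groups overlapped in all 7, whereas over all probe sets 10.3% lay wholly higher and 14.1% wholly lower in Bdh2 morphants.

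The log2 difference of mpx was -0.66 (SE 1.15), with a 95% interval from -3.38 to 2.06. For lyz it was -0.09 (SE 0.54; interval from -1.37 to 1.1996), and for lcp1 -0.49 (SE 0.69; interval from -2.12 to 1.15). These intervals are wide, since the arrays of a group stood far apart. The coro1a probe sets were at -0.23 (SE 0.66; interval from -1.79 to 1.32) and 0.15 (SE 0.45; interval from -0.91 to 1.21). For spi1b the difference was 0.16 (SE 0.48; interval from -0.99 to 1.31). cebpa had the narrowest interval, from -0.83 to 0.77 around -0.03 (SE 0.34). The fit for these intervals left the replicate number out. With the number as an added term the differences were the same, and the SE was smaller for each probe set. It was then 0.36 for mpx, 0.21 for lyz, 0.36 for lcp1, 0.28 and 0.29 for coro1a, 0.29 for spi1b and 0.27 for cebpa.

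The differences were unlike within the 2 replicate numbers. Between the arrays numbered 1 the morphant lay close to the control, at -0.05 for mpx, -0.25 for lyz, 0.16 for lcp1, 0.05 and 0.01 for coro1a, 0.31 for spi1b and -0.31 for cebpa. Between the arrays numbered 2 the differences were -1.28 for mpx, -1.13 for lcp1, -0.52 and 0.29 for coro1a, 0.07 for lyz, 0.01 for spi1b and 0.24 for cebpa. The low morphant values of mpx and lcp1 thus came from 1 array, Bdh2 morphant 2. Without that array the differences were 1.05 for mpx and 0.57 for lcp1, and without Bdh2 morphant 1 they were -2.38 and -1.54. A single array left out sets unlike numbers against each other. Whether the difference itself differs between the numbers was not tested, since each number holds 1 array of a group.

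By group mean on the log2 scale, mpx was at 8.28 in the ectopic Bdh2 array, 8.19 ± 1.56 (SD, n = 2) in controls and 7.52 ± 2.43 (SD, n = 2) in Bdh2 morphants. The order was the same for lyz, at 11.96, 11.75 ± 0.99 and 11.66 ± 0.77, and for lcp1, at 8.34, 8.26 ± 0.57 and 7.77 ± 1.49. The brighter coro1a probe set had it too, at 8.78, 8.55 ± 0.84 and 8.31 ± 1.25. None of these neighbours in the order differed by more than the spread within a group. The ectopic Bdh2 array bears number 1, while the means hold both numbers. Against the arrays of its own number it was the lowest for mpx, lyz, lcp1, both coro1a probe sets and spi1b, 6 of the 7, where 32.9% of all probe sets were lowest. Its difference from control 1 was -0.50 for lyz, -0.32 for lcp1 and -0.36 for the brighter coro1a probe set. For spi1b the ectopic Bdh2 array stood at 7.19, Bdh2 morphants at 7.06 ± 0.75 and controls at 6.91 ± 0.53. For cebpa the levels were 9.23, then 8.98 ± 0.28 in controls and 8.95 ± 0.11 in Bdh2 morphants. The step of cebpa from Bdh2 morphants to the ectopic Bdh2 array, 0.28 (SE 0.41; limma adjusted p = 0.822), was larger than the SD of the 2 morphant arrays and did not pass the test.

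The ectopic Bdh2 array was set against both other groups, which asks where the transcripts lie when Bdh2 is supplied to morphants. None of the myeloid probe sets passed. Against Bdh2 morphants 0 of 7 passed, where 0.527% of all probe sets did, with 6 above 0 (57.6% of all) and a median of 0.29 against 0.12 over all probe sets. Against controls 0 of 7 passed, where 0.667% of all did, also with 6 above 0 (58.6% of all) and a median of 0.20 against 0.12. Only cebpa lay outside both morphant arrays, above them, as 42.7% of all probe sets did. Within number 1 the count turned. Against Bdh2 morphant 1 alone 1 of 7 lay above 0 (54.4% of all), and against control 1 alone 1 of 7 (58.2% of all), in both cases cebpa. The group has 1 array, which is assumed to vary like the others, and both comparisons share it. The mpx difference was 0.76 against Bdh2 morphants (SE 1.40; limma adjusted p = 0.863). Against controls it was 0.10 (adjusted p = 0.994). For lyz it was 0.29 (SE 0.66; adjusted p = 0.887) and 0.20 (SE 0.66; adjusted p = 0.953).

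Set against single arrays, the ectopic Bdh2 array had less mpx than either array numbered 1, by a log2 difference of -0.95 from Bdh2 morphant 1 and -1.003 from control 1. It had more mpx than either array numbered 2, by 2.48 from Bdh2 morphant 2 and 1.202 from control 2. The same held for lcp1, at -0.49 and -0.32 from the arrays numbered 1 and 1.62 and 0.49 from those numbered 2, with the morphant first. In all, 7 of the 11 myeloid probe sets had the ectopic Bdh2 array between low arrays of number 2 and high arrays of number 1. Over all 15502 probe sets 4.87% did.

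**Figure D2:**
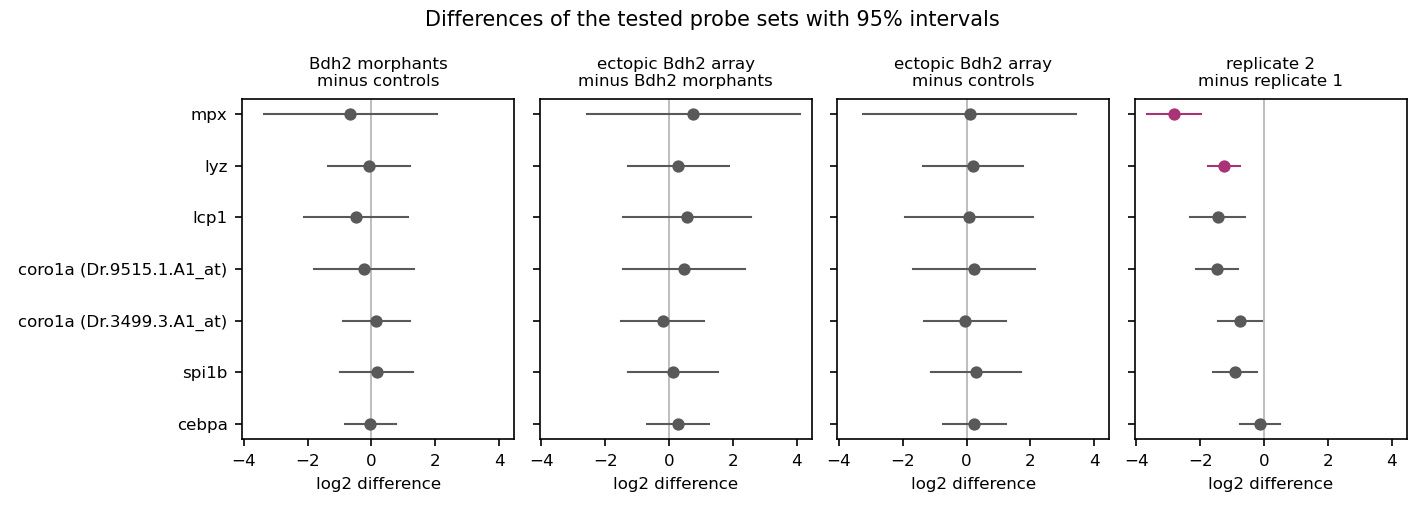
Log2 differences of the 7 tested myeloid probe sets (points) with 95% intervals from the limma fits (lines), in 4 comparisons. Purple marks an adjusted p under 0.05 over all 9301 probe sets. The 3 comparisons between groups have intervals that span 0 throughout, and mpx and lyz are purple in the comparison of replicate numbers.

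By replicate number the myeloid genes parted. The arrays numbered 2 had less mpx, by its brightest probe set, and less lyz than those numbered 1, in controls and Bdh2 morphants alike. Of all 11 probe sets, whether or not they passed the filter, 8 lay wholly lower in number 2 (25.6% of all 15502) and 1 wholly higher (22.8% of all). The higher one was the dimmest mpx probe set. In a limma model with group and number as terms, mpx differed by -2.82 (SE 0.36; adjusted p = 0.0210) and lyz by -1.25 (SE 0.21; adjusted p = 0.0453), and both passed. Over all tested probe sets 0.817% passed as lower. The median over the 11 was -0.92, against -0.03 over all 15502. Of the 7 that passed the filter, 3 (mpx, spi1b and the dimmer coro1a probe set) had a mean in number 2 under it and so were tested through the other arrays, which bears on mpx as a call. Within groups the difference of mpx was -2.20 in controls and -3.43 in Bdh2 morphants, and that of lyz -1.41 and -1.09. Only 0.0860% of the 9301 probe sets had a difference as low as that of mpx or lower.

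The other myeloid genes did not pass over all probe sets. coro1a was at -1.48 (SE 0.28; adjusted p = 0.0574) and -0.76 (SE 0.29; adjusted p = 0.197), lcp1 at -1.46 (SE 0.36; adjusted p = 0.0992) and spi1b at -0.90 (SE 0.29; adjusted p = 0.147). Their groups' own differences, controls first, were -1.19 and -1.77 for the brighter coro1a probe set, -0.81 and -2.11 for lcp1, and -0.75 and -1.05 for spi1b. cebpa was at -0.12 (SE 0.27; adjusted p = 0.821), with -0.40 in controls and 0.15 in Bdh2 morphants. The model leaves 1 residual degree of freedom, and the prior adds 5.83. Without the filter on low values neither call was kept, at an adjusted p = 0.0514 for mpx and 0.0814 for lyz. lyz also missed the threshold with 1 as the added constant (adjusted p = 0.0529) and with a constant prior variance (adjusted p = 0.0777).

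Red cell genes moved with the number too. Of 17 tested erythroid markers 16 lay below 0 in number 2, with a median of -1.81 against -0.07 over all tested probe sets. As lower 10 passed, where 0.817% of all did. Among them were alas2, the first enzyme of heme synthesis in red cells (-2.74), and gata1a, the factor that drives red cell fate against Pu.1 (-2.08). The 1 marker above 0 was urod, at 0.52 in controls and 0.81 in Bdh2 morphants. alas2, gata1a and urod were named here after their values were seen. The summed intensity of these 17 probe sets was 130528 and 65618 in control arrays 1 and 2, 110124 and 68438 in Bdh2 morphant arrays 1 and 2, and 63282 in the ectopic Bdh2 array. A ratio that rises with degraded RNA was also lower in number 2. Signal of the 3' end over the 5' end of the acta1 control was 4.28 and 2.60 in controls, 11.8 and 3.49 in Bdh2 morphants and 6.63 with ectopic Bdh2, and that of gapdh was 2.68 and 1.504, then 2.82 and 1.71, and 1.99. Within each number both ratios were also higher in the Bdh2 morphant than in the control. The part of red cell genes or of RNA degradation in the myeloid values was not tested.

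**Figure D3:**
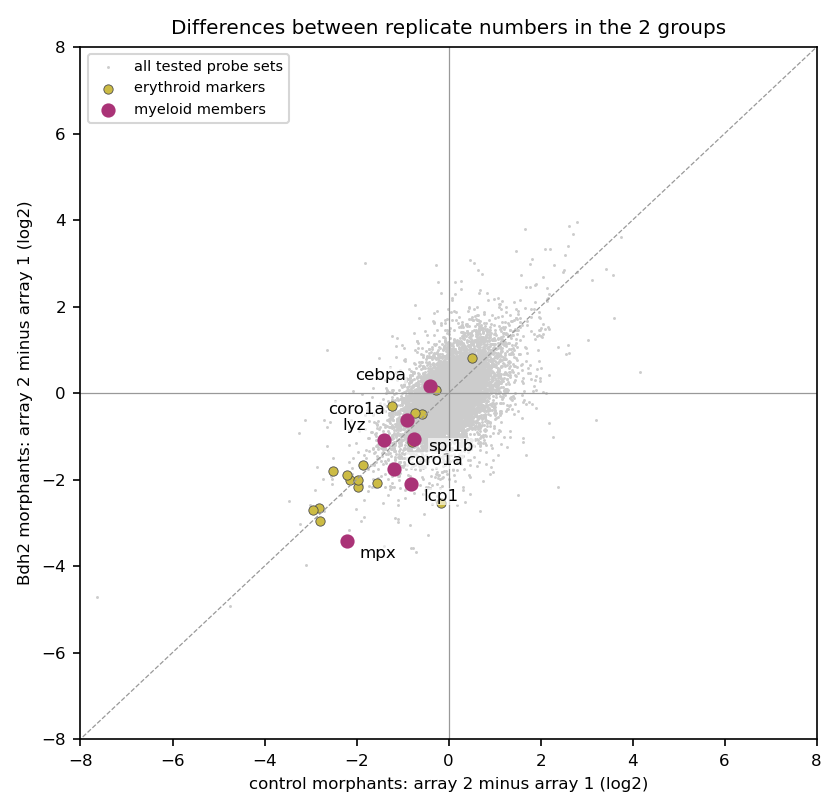
Log2 difference of array 2 from array 1 in control morphants (horizontal) and in Bdh2 morphants (vertical) for the 9301 tested probe sets (grey), the 17 erythroid markers (yellow) and the 7 myeloid probe sets (purple, named). The dashed line marks equal differences. All myeloid points but cebpa lie in the lower left, with mpx lowest at -2.20 and -3.43.

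Other genes of white blood cells were read from 4 lists, with 1 probe set per gene and the 6 genes above left out. The lists are named for the cells they were drawn up for. Which cells or tissues gave the signal of their genes was not tested. In Bdh2 morphants against controls 0 of their tested genes passed in either direction. Of 28 genes listed for neutrophils 11 had a matched probe set, and npsn and csf3r were among those that had none. The neutrophil list had 8 tested genes, 4 lower and 4 higher, with a median of -0.08, which was 0.14 without control 1 and 0.19 without Bdh2 morphant 2. Its smallest p-values were those of mmp13a, a collagenase (-1.19, SE 0.67), nccrp1 (0.71, SE 0.44) and s100a10b (0.35, SE 0.26). mmp13a read 315 and 397 in controls, 328 and 60.8 in Bdh2 morphants and 235 with ectopic Bdh2, so that Bdh2 morphant 2 alone was low. Of 42 genes listed for macrophages 25 had a matched probe set, while mpeg1.1 and mfap4 had none and csf1ra was below the filter. The macrophage list had 12 tested genes, 9 higher and 3 lower, with a median of 0.28, or 0.06 within number 1 and -0.09 within number 2. Examples were the cathepsin S genes ctss2.2 (0.64, SE 0.44) and ctss2.1 (0.40, SE 0.46) and laptm5, a lysosomal membrane protein of blood cells (-0.46, SE 0.51).

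Of 16 other tested transcription factors of blood 9 were lower and 7 higher, with a median of -0.04. stat5a, a transducer of cytokine signals, was at 0.70 (SE 0.40), lmo2, a partner of the blood factor tal1, at -0.52 (SE 0.35) and klf2b at 0.56 (SE 0.43). Of 23 genes of leukocyte signalling and the cytoskeleton 14 were higher and 9 lower, with a median of 0.04. They included coro1b, a coronin of many cell types (-0.67, SE 0.46), arpc5a, a subunit of the actin nucleator Arp2/3 (0.38, SE 0.31), and capgb, which caps actin filaments (-0.34, SE 0.32). Within numbers 1 and 2 the cytoskeleton median was -0.13 and 0.20.

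Of 15 inflammatory genes 11 were lower and 4 higher, with a median of -0.08, and 0 passed. The smallest p was that of ccl25b, a chemokine of the thymus and gut (-1.97, SE 0.67; limma adjusted p = 1.00). It read 1023 and 299 in controls, 215 and 75.6 in Bdh2 morphants and 214 with ectopic Bdh2. The morphants lay wholly below the controls, at -2.17 within number 1 and -1.78 within number 2. cxcl14, a chemokine of epithelia, was at 0.46 (SE 0.38) and the chemokine receptor gene cxcr4a at 0.38 (SE 0.36). Tested genes of other cells were 3 lymphoid or thrombocyte markers, all lower (median -0.37), 17 erythroid markers, 15 of them lower (median -0.41, but 0.39 without control 1 and 0.41 without Bdh2 morphant 2), 6 endothelial markers, 4 of them lower (median -0.14, but 0.18 without Bdh2 morphant 2), and 16 lysosome genes, 5 of them lower (median 0.14). None passed. Their smallest p-values were those of gata3 (-0.52), f5 (-0.37) and fli1rs (-0.05) among lymphoid or thrombocyte markers, tmod4 (-0.50), hbbe2 (-0.92) and fech (-0.76) among erythroid ones, aqp8a.1 (-1.47), fli1 (-0.59) and flt4 (0.24) among endothelial ones, and lamp1b (-0.66), ctsla (0.35) and atp6v1h (-0.34) among lysosome genes. Which tissue the signal of gata3, f5 and fli1rs came from was not tested, and fli1rs was counted in the endothelial list as well. The lymphoid genes rag1 and rag2 and the thrombocyte gene itga2b were below the filter. There rag1 was brighter in each Bdh2 morphant array (45.0, 54.2) than in any control array (39.0, 35.9). itga2b went the other way, at 12.2 and 14.2 against 27.6 and 21.8. The groups overlapped in the other untested markers of that list, rag2 among them. Over all tested probe sets 10.3% lay wholly higher and 14.1% wholly lower in Bdh2 morphants. That share is not given here for probe sets below the filter, and these values are dim.

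In the ectopic Bdh2 array against Bdh2 morphants the companion genes of macrophages and of the cytoskeleton were mostly lower, and again 0 passed. Of all tested probe sets 0.527% passed in this comparison, and 57.6% lay above 0. Of the 12 macrophage genes 11 were lower, with a median of -0.35 against 0.12 over all probe sets, or -0.03 without Bdh2 morphant 1 and -0.75 without Bdh2 morphant 2. apoeb, an apolipoprotein that marks microglia and is made in other tissues as well, was at -2.50 (SE 0.54; adjusted p = 0.171), the cathepsin B gene ctsba at -1.98 (SE 0.70) and npc2.1, which carries sterols out of lysosomes, at -1.58 (SE 0.65). apoeb read 9381 and 12545 in controls, 8423 and 21725 in Bdh2 morphants and 2385 with ectopic Bdh2, which lay below all other arrays. Of the 23 cytoskeleton genes 16 were lower (median -0.47), such as pfn1, which delivers actin monomers (-1.59, SE 0.30; adjusted p = 0.130), and cotl1 (-0.94, SE 0.27), while coro1b was at 1.57 (SE 0.56). pfn1 and the other actin genes are used by many cell types.

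The remaining lists of that comparison had 0 genes past the threshold, which 0.527% of all tested probe sets passed. Mostly lower as well were 12 of 17 erythroid markers (median -0.22, but 0.65 without Bdh2 morphant 1) and 10 of 16 lysosome genes (median -0.28). The lysosome list shares ctsba and npc2.1 with the macrophage list. Higher were 3 of 3 lymphoid or thrombocyte markers (median 0.44) and 4 of 6 endothelial markers (median 0.20), as were 57.6% of all tested probe sets. Both of these lists hold fli1rs. Of the 8 neutrophil genes 4 were lower (median -0.14), with padi2 at -1.26 (SE 0.45), s100a10b at -0.69 (SE 0.32) and cyba, a subunit of the phagocyte oxidase, at -0.66 (SE 0.44). Of the 16 transcription factors 10 were higher, with a median of 0.15 that was -0.0524 after quantile normalisation and -0.0538 with arrays centred on their median, such as gata2a (1.22, SE 0.60), runx3 (0.83, SE 0.47) and myb (0.74, SE 0.43), a factor of blood stem cells. Of the 15 inflammatory genes 8 were higher, with a median of 0.18 that was -0.0174 with arrays centred, and with the smallest p-values for the chemokine receptor gene cxcr4b (1.74, SE 0.67), socs3a, a brake on cytokine signals (1.44, SE 0.60), and nfkbiaa, an inhibitor of NF-kB (1.01, SE 0.42). socs3a read 134 and 138 in controls, 293 and 106 in Bdh2 morphants and 509 with ectopic Bdh2. Among markers of other cells the smallest p-values were those of gata3 (0.95), fli1rs (0.44) and f5 (0.21), of tmod4 (-2.14), urod (-1.08) and klf17 (-1.24), of aqp8a.1 (-1.34), kdrl (0.65) and flt4 (-0.47), and of ctsla (-1.53), ctsba and npc2.1. Against controls, where 0.667% of all tested probe sets passed in either direction, 1 of the 112 tested list genes passed, as lower. It was tmod4, taken from the erythroid list. It read 2777 and 2305 in controls, 1732 and 1829 in Bdh2 morphants and 391 with ectopic Bdh2. Which tissue its signal came from was not tested.

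By replicate number the lists were mixed, over genes that passed the same filter. In number 2 against number 1, 6 of 8 genes of the neutrophil list lay below 0 (median -0.31) and 7 of 12 of the macrophage list (median -0.19). So did 11 of 16 transcription factors (median -0.20) and 14 of 23 cytoskeleton genes (median -0.13). Over all tested probe sets the median was -0.07, and 0.817% passed as lower. Passing were tal1, a factor of blood stem and red cells, as lower (-1.80, SE 0.31; adjusted p = 0.0453) and ctsba as higher, as 0.806% of all did (1.30, SE 0.22; adjusted p = 0.0455). The tal1 intensity was 277 and 53.1 in controls, 184 and 54.5 in Bdh2 morphants and 153 with ectopic Bdh2, the order seen for mpx. Its values in number 2 lay under the filter's intensity of 97.6. tal1 was thus tested through the other arrays, which bears on its call. The ctsba intensity was 2000 and 4333, then 2188 and 6174, and 922. Genes named next were chosen after their values were seen. marco, a scavenger receptor of macrophages, read 140 and 46.5 in controls, 273 and 40.7 in Bdh2 morphants and 106 with ectopic Bdh2 (-1.84, SE 0.35; adjusted p = 0.0581). The marco values in number 2 lay under the filter's intensity as well. cpa5, a carboxypeptidase of mast cells that was counted in the neutrophil list, was at -1.26 (SE 0.27; adjusted p = 0.0773). The tyrosine phosphatase gene ptpn6 was at -1.02 (SE 0.34; adjusted p = 0.152). By contrast cd68, a lysosomal protein of macrophages, was at 0.86 (SE 0.32; adjusted p = 0.182).

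**Figure D4:**
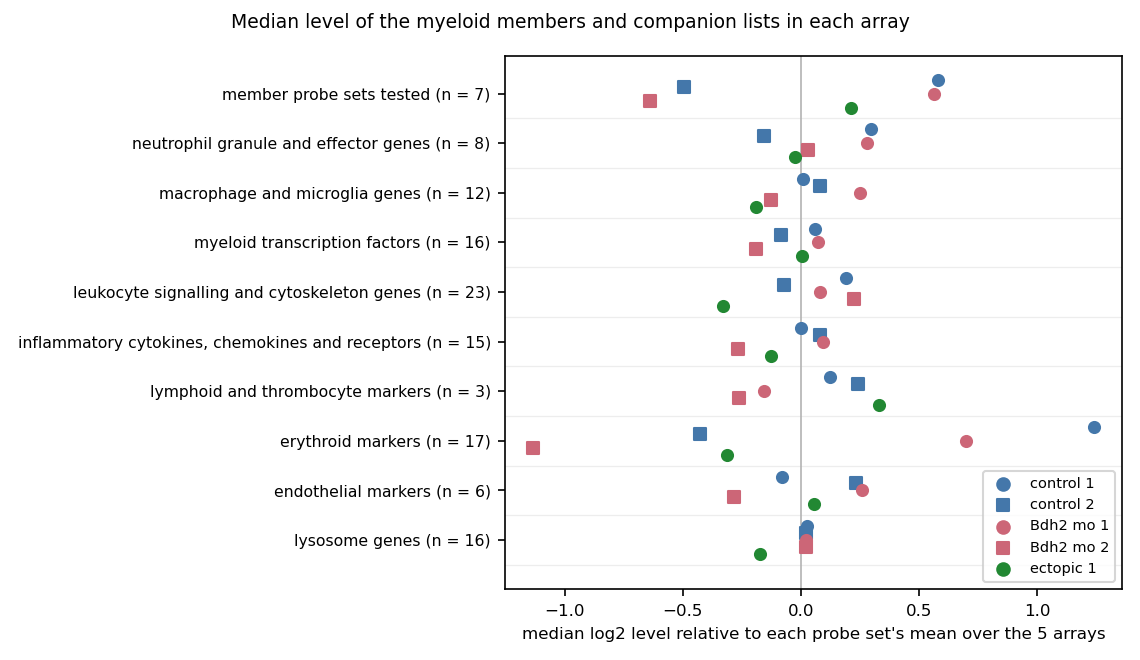
Median log2 level of the 7 tested myeloid probe sets and of each companion list in each array, relative to each probe set's mean over the 5 arrays. Colour gives the group and shape the replicate number. The medians of the tested myeloid probe sets were 0.58 and 0.56 in the arrays numbered 1 and -0.50 and -0.64 in those numbered 2, and the erythroid list shows the same order.

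The profile over the 5 arrays was compared between genes by the root mean square difference of log2 values after each probe set's own mean was taken out, where 0 means identical profiles. Among the myeloid probe sets the closest pairs were the dimmer coro1a probe set with spi1b, at 0.20, and lcp1 with the brighter coro1a probe set, at 0.20. The farthest were mpx and cebpa, at 1.30. Among all tested genes the 3 nearest to mpx were alas2 at 0.32, cfp, which codes for properdin of the complement system, at 0.37, and epb41b, a protein of the red cell membrane skeleton, at 0.38. alas2 read 4982 and 690 in controls, 2849 and 439 in Bdh2 morphants and 1800 with ectopic Bdh2, and cfp read 442 and 107, then 665 and 71.9, and 339.

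Nearest to lyz were dnajc5ga at 0.08, mmut at 0.10 and plp2b at 0.10, and nearest to lcp1 were slc24a4a at 0.10, foxo3b at 0.15 and nck1a at 0.16. The brighter coro1a probe set lay nearest to hspa5, the main chaperone of the endoplasmic reticulum, at 0.10, bnip3lb, of mitochondrial clearance, at 0.11, and si:ch211-215a10.4 at 0.12. For spi1b they were csnk1g2a at 0.03, irak4, a kinase of Toll-like receptor signals, at 0.04 and ints3 at 0.06. cebpa was nearest to si:ch211-126c2.4 at 0.03, fam20b at 0.03 and pip4k2ca at 0.04. Each of these comparisons rests on 5 arrays and says nothing of a shared role.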

How the data were processed

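The deposited values are linear probe set intensities, 1 column per array, made by the authors in Affymetrix Expression Console, per the submitters' processing notes; no source used here gives its version, algorithm or scaling. From them log2(intensity + 16) was computed with no further normalisation. Of 15617 probe sets 115 controls were set aside, and 9301 of 15502 were tested. Symbols came from the array annotation (10802 probe sets with 1 symbol, 135 with several, 4680 with none); 10718 matched the RefSeq table by gene ID and 1 was updated. List genes were matched by symbol, or by a RefSeq synonym with the same first 3 letters.

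limma 3.58.1 in R 4.3.3 fitted a mean per group with an intensity-dependent prior (2 residual and 4.89 prior degrees of freedom), two-sided, with Benjamini-Hochberg adjustment over all tested probe sets. The comparison of numbers added the replicate number as a term. The pipeline was tested on simulated data for Bdh2 morphants against controls. There 3.15% of added 2-fold differences and 76.55% of 4-fold ones were recovered, so that most 2-fold differences would be missed. The simulated noise was independent between arrays, with a spread typical of the intensity, and 200 probe sets were changed per run. The real arrays split by number, and the SE was 1.15 for mpx and 0.69 for lcp1. The 4-fold share therefore does not carry over to the myeloid probe sets. The labels do not give separate clutches, so p-values measure only the spread between these samples; the number of arrays limits precision.

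Named genes were every myeloid probe set, the 3 nearest profiles, and from each of 9 lists the 3 genes with the smallest unadjusted p. That p came from the comparisons of Bdh2 morphants with controls and of the ectopic Bdh2 array with Bdh2 morphants. List genes named in the comparison of numbers, tal1 and gata1a among them, were picked after their values were seen. The untested genes rag1, rag2 and itga2b were also named outside this rule. Other exceptions are said to be so. Of 112 tested list genes 4 were in more than 1 list. Members and lists were chosen with earlier results of these data known. Alternatives changed the constant, scaling, filter, moderation and block, and left out each control and Bdh2 morphant array in the comparisons of groups. Chosen after seeing the data were fits without the ectopic Bdh2 array (Bdh2 morphants against controls, and the numbers), counts by number over all 11 myeloid probe sets, and differences of that array from those numbered 1.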

Additional observations from a re-analysis of the deposited data

How the results depend on the processing

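No myeloid call arose in the comparisons of groups under any other constant, scaling, filter, moderation or left-out array, with 1 exception: mpx in the ectopic Bdh2 array against Bdh2 morphants with a replicate block that put the ectopic Bdh2 array in block 2 (2.17; limma adjusted p = 0.0391). Counts of all probe sets past the threshold moved more, and the cause was not tested. For Bdh2 morphants against controls there were 0, against 3 with a replicate block (3 with the ectopic Bdh2 array in block 2) and 0 to 5 with 1 array left out. For the ectopic Bdh2 array against Bdh2 morphants there were 49, against 17 without the filter, 0 with a constant prior variance, 151 and 823 with the 2 blocks and 0 to 222 with 1 array left out. Against controls there were 62, against 38, 40, 135 and 393 in the same order and 84 to 132. Between numbers there were 151, against 406 after quantile normalisation, 1209 with arrays centred on their median, 48 without the filter and 149 without the ectopic Bdh2 array. The prior degrees of freedom were 826.2 with centring against 5.83, so that probe sets of like intensity shared almost 1 variance, and p-values under centring rest on that. Leaving out another array was not run there, as no residual degree of freedom remains. In that comparison the brighter coro1a probe set passed with 64 added (adjusted p = 0.0483), quantile normalisation (0.0257) and centring (1.478e-04), and lcp1 with centring (3.518e-04).

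Directions turned as follows. In Bdh2 morphants against controls, lyz was at 0.0161 with centring, and cebpa at 0.0187 with quantile normalisation and 0.0704 with centring. With 1 array left out mpx ran from -2.38 to 1.05, lyz from -0.79 to 0.62, lcp1 from -1.54 to 0.57, coro1a from -1.12 to 0.65 and from -0.30 to 0.60, spi1b from -0.37 to 0.69 and cebpa from -0.23 to 0.17. In the ectopic Bdh2 array against Bdh2 morphants the replicate block gave -0.65 for mpx, -0.33 for lyz, -0.16 for lcp1, -0.27 for the brighter coro1a probe set and -0.32 for spi1b, and the block 2 version 0.18 for the dimmer coro1a; spi1b was at -0.0519 with quantile normalisation and -0.0740 with centring. Left-out arrays gave -0.95 to 2.48, -0.25 to 0.84, -0.49 to 1.62, -0.42 to 1.35, -0.51 to 0.11 and -0.40 to 0.66 for mpx, lyz, lcp1, the 2 coro1a probe sets and spi1b. Against controls the block gave -1.31 for mpx, -0.42 for lyz, -0.65 for lcp1, -0.51 for the brighter coro1a and -0.17 for spi1b, and the block 2 version 0.33 for the dimmer coro1a. mpx was at -0.00633 with quantile normalisation, and lcp1 at -0.0261 with it and -0.0154 with centring. Left-out arrays gave -1.003 to 1.202, -0.50 to 0.91, -0.32 to 0.49, -0.36 to 0.82, -0.49 to 0.40 and -0.0911 to 0.66 in the same order.

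List medians turned too. In Bdh2 morphants against controls the erythroid median ran from -1.48 to 0.41 with 1 array left out, the endothelial from -0.40 to 0.18, the neutrophil from -0.11 to 0.19, the transcription factors' from -0.09 to 0.06, the inflammatory from -0.27 to 0.07, the cytoskeleton's from -0.06 to 0.16 and the lysosomal from -0.01 to 0.05. With centring the neutrophil median was 0.02, the transcription factors' 0.07 and the inflammatory 0.03, and the neutrophil one was 0.19 with a filter at the 60th percentile. In the ectopic Bdh2 array against Bdh2 morphants the replicate block gave -0.0199 for the transcription factors and -0.0635 for inflammatory genes, and the erythroid median was 0.65 without Bdh2 morphant 1 and 0.65 with the ectopic Bdh2 array in block 2.

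The labels do not tie the numbers to a clutch or day and there are 2 pairs, so the numbers were not taken as pairing. Log2 values correlated across 9301 probe sets at 0.964 between the arrays numbered 1 and 0.952 between those numbered 2, against 0.932 within controls and 0.914 within Bdh2 morphants. Probe sets are not independent of each other. Across them the difference between numbers correlated at 0.538 between the groups. With the block 0 myeloid probe sets passed in Bdh2 morphants against controls. With it 1 of 7 lay above 0, cebpa, in the ectopic Bdh2 array against Bdh2 morphants, and 1 of 7 against controls. Groups of 2 arrays limit all of these comparisons.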

Other observations

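Of the genes in the 4 lists of white blood cells, 31 were below the filter and untested. In 13 of these 31 probe sets both arrays numbered 2 lay below both numbered 1, and in 5 they lay above, where 18.8% and 21.4% of all 6201 probe sets below the filter did. In Bdh2 morphants 6 of the 31 lay wholly below the controls and 2 wholly above. Over all tested probe sets 14.1% and 10.3% did, and the share below the filter is not given here. The genes named here were chosen after their values were seen. The intensity of btk, a kinase of B cells and myeloid cells, was 85.0 and 33.1 in controls, 117 and 53.6 in Bdh2 morphants and 63.7 with ectopic Bdh2. The 5 probe sets with the opposite order were those of cebp1, coro6, cd74a, irf1a and klf4. cebp1, a myeloid factor of the C/EBP family, read 38.5 and 88.1 in controls, 41.6 and 94.3 in Bdh2 morphants and 50.3 with ectopic Bdh2. coro6, a coronin, read 5.49 and 50.4, then 2.52 and 23.8, and 6.48. The intensity of ptprc, the leukocyte phosphatase CD45, was 57.9 and 49.3, then 82.7 and 41.5, and 75.5. At these intensities the values are close to the dim end of the arrays and were not tested.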
